A study of Mus musculus with 8 samples.

Results

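The mouse mitochondrial chromosome encodes 37 genes that were listed in the counts, of 55335 genes in all. They were chosen as every row whose Ensembl ID maps to a symbol starting with mt-, and they comprise 13 mRNAs, 2 rRNAs and 22 tRNAs. No expression value entered the choice. Mitochondrial DNA is transcribed on both strands from promoters in its control region into long precursor RNAs. The tRNAs lie between most of the mRNAs and rRNAs and are cut out by dedicated endonucleases, which frees the transcripts on either side. Most mitochondrial mRNAs then receive a short poly(A) tail, and all of them encode subunits of the respiratory chain or of ATP synthase, which work together with many subunits encoded in the nucleus.

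RNA-seq was performed on poly(A) RNA from E14 cells, a line of mouse embryonic stem cells (ESCs), to ask how the loss of a pluripotency factor (Sox2), of an RNA-binding protein (hnRNPK) or of a kinase that releases paused RNA polymerase II (Cdk9) changes gene expression. The 8 libraries formed 4 groups of 2 replicates, control cells labelled negative control, Sox2 knockdown (KD), Hnrnpk knockdown and Cdk9 knockdown. Cells of every group were infected with a lentiviral shRNA vector, in the control a scrambled shRNA, selected with puromycin and kept in serum medium with LIF, CHIR99021 and PD0325901. The cells were populations after selection, not clones, which shRNA each library received is not given in the sources used here, and no source says whether replicates were separate infections, so that p-values measure only the spread between these libraries.

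Totals ran from 16709201 to 17719366 counts per library. CPM below are counts per 1000000 counts, scaled by TMM effective library sizes. Cdk9 was at 109 and 129 CPM in control and 73.1 and 53.2 CPM in Cdk9-KD, and Sox2 was at 412 and 530 CPM in control and 320.4 and 284 CPM in Sox2-KD. Hnrnpk was at 1094 and 1131 CPM in control and at 697 and 1144 CPM in the hnRNPK-KD-labelled libraries, so that replicate 2 of that group did not show lower Hnrnpk mRNA. The 8 ESC markers examined were over 1 CPM in every group. Summed CPM of 6 trophectoderm markers was 156 to 283 in Sox2-KD and 45.6 to 58.1 in control, and that of 6 primitive endoderm markers was 42.9 to 62.2 and 3.83 to 5.10, with 0 of these markers at 0 in either group. The first sum rested on Krt8 (97.1 and 182 CPM in Sox2-KD) and Krt18 (41.4 and 82.7 CPM), keratins of simple epithelia, while the lineage factor Cdx2 was lower than in control, at 6.10 and 6.22 against 19.8 and 35.1 CPM, and Elf5 was at 0.06 CPM or less. The second rested on the adaptor gene Dab2, at a mean ± SD of 44.6 ± 13.6 CPM (n = 2) in Sox2-KD, while Gata4 was at 1.15 and 0.46 CPM in Sox2-KD and 0.96 and 0.97 CPM in control. Other markers of both lists were higher than control in both Sox2-KD libraries, at lower levels. Gata3 was at 2.36 and 2.85 against 0.28 and 0.17 CPM, and Eomes at 8.96 and 9.25 against 3.83 and 2.58 CPM. Gata6 was at 2.69 and 3.88 against 0.23 and 0.29 CPM, and Sox17 at 0.93 and 0.57 against 0.11 and 0.23 CPM. Pdgfra was at 2.75 and 3.08 against 1.75 and 2.69 CPM, and Foxa2 was at 0.33 CPM or less in both groups.

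The first sequences printed here show the single bases at which mitochondrial mRNAs differ from aligned nuclear copies on chromosome 1. A run of 7 nuclear pseudogenes lies on chromosome 1 (GRCm38, minus strand, 24611535 to 24616197, 4663 bases). Their bases aligned to mitochondrial genes end at 24616188. These bases match parts of the mitochondrial chromosome between position 6390 in mt-Co1 and position 11042 in mt-Nd4. The stretches between the annotated pseudogenes were not read. Of the 7, 5 had no mismatch to the mitochondrial gene over the aligned bases. Gm29216 differed from mt-Co1 by A1066T and Gm28438 differed from mt-Nd3 by T3C, where the mitochondrial base comes first and positions are counted from the first base of the mitochondrial gene. In the following stretches, read from GENCODE transcripts, the differing base is in capitals.

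mt-Co1 (M, plus strand, 6390 to 6423): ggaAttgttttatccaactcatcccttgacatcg
Gm29216 (chromosome 1, minus strand, 24616155 to 24616188): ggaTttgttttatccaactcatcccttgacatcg
mt-Nd3 (M, plus strand, 9459 to 9491): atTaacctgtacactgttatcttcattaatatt
Gm28438 (chromosome 1, minus strand, 24613087 to 24613119): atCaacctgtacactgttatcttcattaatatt

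The mitochondrial genes are packed almost without spacers, and some share bases. The next stretches show mt-Tl1, the tRNA for leucine, in capitals between the last 30 bases of mt-Rnr2 and the first 30 of mt-Nd1, and then the 43 bases shared by mt-Atp8 and mt-Atp6 and the 7 bases shared by mt-Nd4l and mt-Nd4, in capitals. Reads that cover such a boundary belong to neighbouring genes at once.

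mt-Rnr2, mt-Tl1, mt-Nd1 (M, plus strand, 2646 to 2780): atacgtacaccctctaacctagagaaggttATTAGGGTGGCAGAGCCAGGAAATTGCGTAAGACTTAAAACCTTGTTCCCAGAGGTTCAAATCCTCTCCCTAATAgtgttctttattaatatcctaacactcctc
mt-Atp8, mt-Atp6 (M, plus strand, 7897 to 7999): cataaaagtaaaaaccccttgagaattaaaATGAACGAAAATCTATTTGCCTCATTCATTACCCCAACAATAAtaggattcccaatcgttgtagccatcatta
mt-Nd4l, mt-Nd4 (M, plus strand, 10137 to 10203): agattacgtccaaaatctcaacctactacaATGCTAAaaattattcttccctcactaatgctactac

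The 3 classes differed widely in their share of a library. The 13 mRNAs took 2.79% and 2.99% of all counts in control, 2.89% and 3.02% in Sox2-KD, 2.84% and 2.45% in the hnRNPK-KD-labelled libraries, and 3.02% and 2.69% in Cdk9-KD. The means ± SD (n = 2) were 2.89 ± 0.136% in control, 2.96 ± 0.0925% in Sox2-KD, 2.64 ± 0.278% in the hnRNPK-KD-labelled libraries and 2.85 ± 0.235% in Cdk9-KD. Each KD group overlapped control, and the two-sided exact permutation test gave p = 0.667, 0.667 and 1, where 2 libraries against 2 cannot go below 0.333. The lowest share, 2.45% in replicate 2 of the hnRNPK-KD-labelled libraries, had a 95% exact binomial interval of 2.44 to 2.46%. Counting error is thus far smaller than the spread between replicates.

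The rRNAs took 0.0652% and 0.0684% of counts in control, 0.113% and 0.0812% in Sox2-KD, 0.100% and 0.0434% in the hnRNPK-KD-labelled libraries, and 0.0517% and 0.0483% in Cdk9-KD. Sox2-KD was above and Cdk9-KD below control in both libraries, each with an exact permutation p of 0.333, the smallest this design allows. The tRNAs summed to between 308 and 879 counts per library, or 0.00174% to 0.00498%. Poly(A) selection acts on the 3 classes differently, and whole-cell totals of rRNA or tRNA cannot be read from these shares.

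Per length, the mRNAs fell into an abundant and a low set, a division made after their values were seen. On the scale of mean CPM per kb over the 8 libraries, mt-Co1, the catalytic subunit of cytochrome c oxidase (complex IV), stood first at 10175, with a range of 9000 to 11010 that no other member reached. It was followed by mt-Nd1 at 3958 and mt-Cytb, the cytochrome b of complex III, at 2712, whose ranges overlapped. The complex I subunits mt-Nd5 (1383) and mt-Nd2 (1355) overlapped in turn, as did mt-Nd4 (965) and mt-Nd6 (781), the latter being the only mRNA on the opposite strand. These 7 mRNAs were followed by the rRNAs mt-Rnr2, the 16S RNA of the large mitochondrial ribosomal subunit, at 375, whose range overlapped that of mt-Nd6, and mt-Rnr1, the 12S RNA of the small subunit, at 126.

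The other 6 mRNAs lay lower, at 65.2 CPM per kb for mt-Co2, 36.1 for mt-Co3, 34.8 for mt-Atp6, 18.4 for mt-Atp8, 9.79 for mt-Nd4l and 5.04 for mt-Nd3. They encode the other mitochondrial subunits of complex IV, both of ATP synthase and the smallest of complex I. The ranges of mt-Co3 and mt-Atp6 overlapped and those of the other neighbours in this order did not. Per kb, mt-Co1 was 156 times mt-Co2, between 129 and 191 times in single libraries, although both encode subunits of the same complex. The 6 together made up 0.306% to 0.445% of mRNA counts, and mt-Co1 alone 50.7% to 60.7%.

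**Figure D1:**
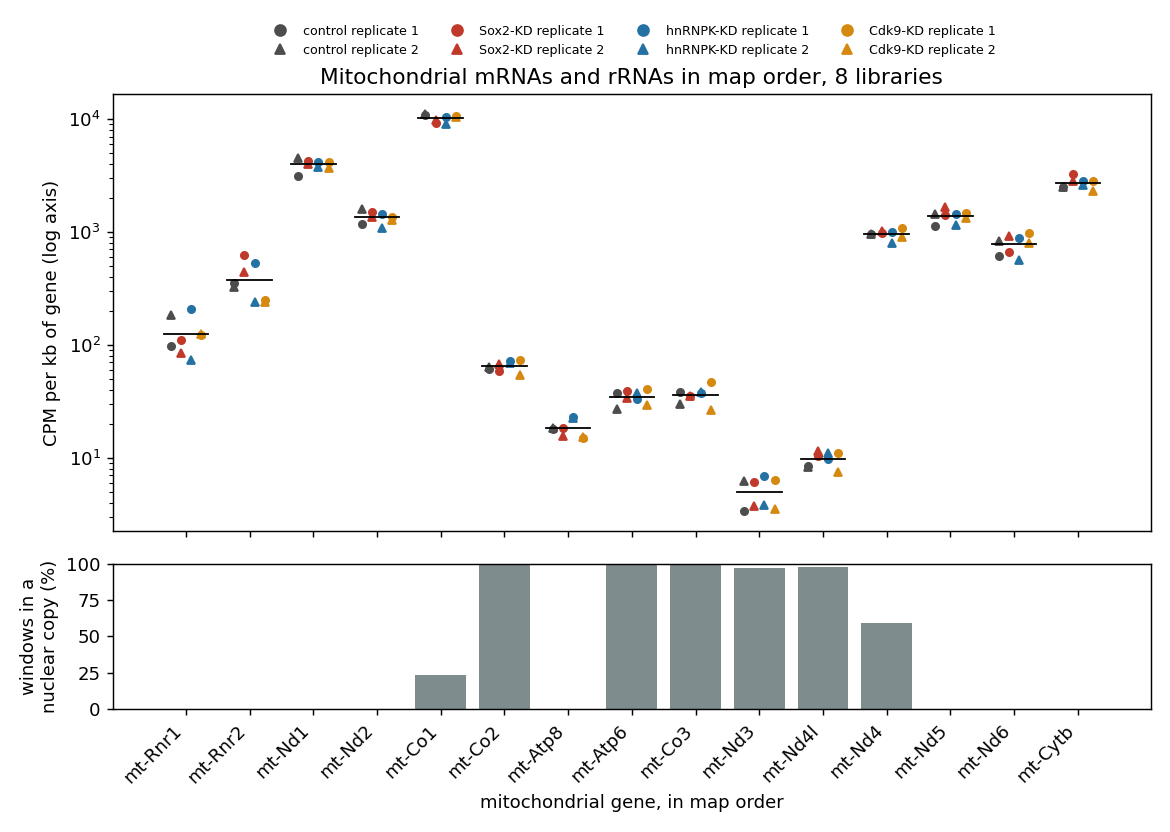
The upper panel plots CPM per kb of gene (log axis) of the 13 mRNAs and 2 rRNAs in map order, with a point for each of the 8 libraries and a line at the mean; the lower panel plots the percent of each gene's 150-base windows found unchanged in a nuclear transcript. The 6 low mRNAs, mt-Co2 to mt-Nd4l, are neighbours, and 5 of them have 97.0% to 99.8% of windows in a nuclear copy.

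The low mRNAs are neighbours on the map and coincide with the segment copied on chromosome 1. Of all 150-base windows, the length of a read, 99.4% of those in mt-Co2, 99.4% in mt-Atp6, 99.8% in mt-Co3, 98.0% in mt-Nd4l and 97.0% in mt-Nd3 occurred unchanged in a nuclear transcript. The abundant mt-Nd4 shared 59.2% and mt-Co1 23.6%, and the other abundant mRNAs and both rRNAs shared 0%. For mt-Atp8 no annotated copy was found, but it lies between mt-Co2 and mt-Atp6, where the copies Gm28661 and Gm10925 are 233 bases apart on chromosome 1 and their mitochondrial counterparts are also 233 bases apart. The sequence of that nuclear gap was not read here. How reads matching several places were counted is not given in the sources used here, and the part of the copies in the low levels was not tested.

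The copies themselves had counts. Gm10925, the copy of mt-Atp6, had 335 to 525 counts per library against 323 to 487 for the gene, a median ratio of 1.02. Gm28437 had 373 to 711 counts against 354 to 630 for mt-Co3 (median ratio 0.945), and Gm28661 416 to 612 against 629 to 856 for mt-Co2 (1.47). Where the copy covers only part of a gene the counts were far apart, with 331 to 501 for Gm29216 against 238924 to 299746 for mt-Co1, and 117 to 176 for Gm28439 against 19017 to 25534 for mt-Nd4.

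For mt-Nd3 the copy varied more than the gene. Gm28438 had 500 and 58 counts in control, 658 and 154 in Sox2-KD, 288 and 171 in the hnRNPK-KD-labelled libraries and 241 and 116 in Cdk9-KD, higher in replicate 1 of each group, while mt-Nd3 stayed between 21 and 41. Gm10222, the copy of mt-Nd4l, had 50 to 126 counts against 38 to 60. On the CPM scale Gm28437 and Gm10222 were also higher in replicate 1 of each group. The 4 copies elsewhere were less alike, at 95.2% to 97.6% identity. Gm13340, a copy of mt-Co1 on chromosome 2, had 935 to 1364 counts, Gm13341 (mt-Co2) had 180 to 230, and Gm13339 (mt-Nd2) and Gm4076 (mt-Nd5, chromosome 13) had 7 to 35.

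**Figure D2:**
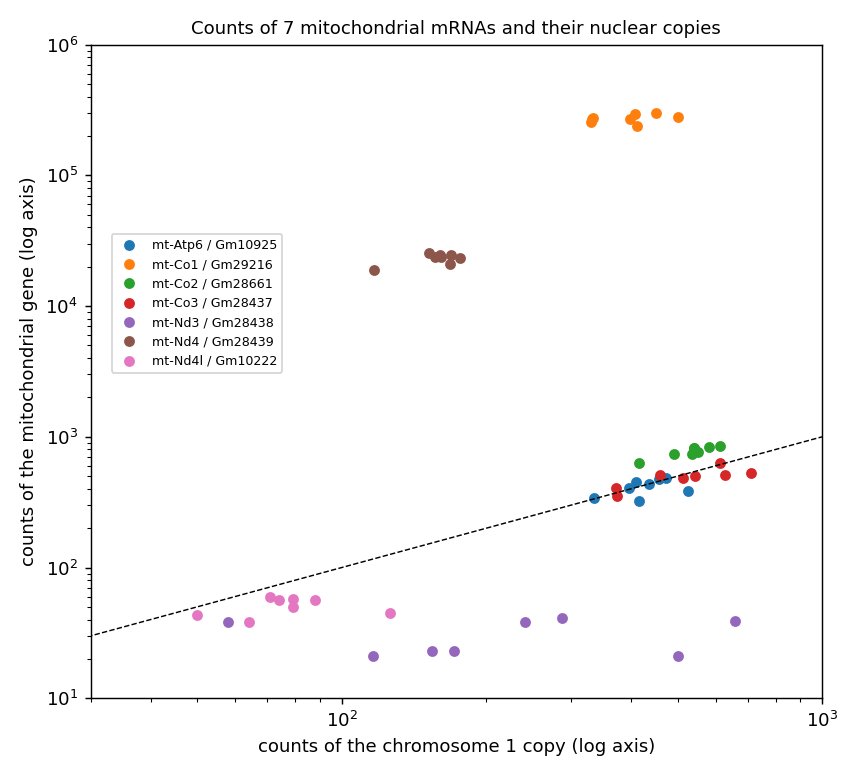
Counts of 7 mitochondrial mRNAs (vertical, log axis) against counts of their chromosome 1 copies (horizontal, log axis), with a point per library and a dashed line at equal counts. The points of mt-Atp6 and mt-Co3 lie along the line, those of mt-Co1 and mt-Nd4 at least 124 times above it, and those of mt-Nd3 below it.

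Across the knockdowns no mitochondrial mRNA passed the test, which was edgeR's quasi-likelihood test with an adjusted p under 0.05 and an absolute log2 fold change (log2FC) over 0.6. Of the 37 genes 22 had enough counts to be tested, all 13 mRNAs, both rRNAs and 7 tRNAs. In Sox2-KD versus control 0 of the 22 were called, against 4.32% of all 16504 genes tested. In the hnRNPK-KD-labelled libraries versus control 0 of 22 were called, against 0% of all genes, and in Cdk9-KD versus control 0 of 22, against 0.139%. At an unadjusted p under 0.05 there were also 0 of 22 in each of these comparisons by the quasi-likelihood test, beside 19.3%, 8.03% and 10.4% of all genes. Both DESeq2 and edgeR's likelihood ratio test called 0. Of all 16504 genes, DESeq2 called 1029, 83 and 222 in these comparisons and the likelihood ratio test 1350, 87 and 279. Each of these 2 tests had 1 of 22 at an unadjusted p under 0.05 in Sox2-KD versus control, beside 16.7% and 19.6% of all genes.

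Among complex IV mRNAs, mt-Co1 was at 16879 and 17010 CPM in control, 14143 and 15292 in Sox2-KD, 16077 and 13905 in the hnRNPK-KD-labelled libraries and 16365 and 16087 in Cdk9-KD. Both control libraries were above all 6 others. The fitted log2FC was -0.20 (SE 0.13, edgeR adjusted p = 0.451) in Sox2-KD, -0.18 (SE 0.13, adjusted p = 0.816) in the hnRNPK-KD-labelled libraries and -0.06 (SE 0.13, adjusted p = 0.923) in Cdk9-KD. Its low neighbour mt-Co2 was at 41.8 and 44.0 CPM in control and 37.2 to 50.0 CPM in the other libraries, and mt-Co3 at 29.96 and 23.4 CPM in control and 20.9 to 36.8 CPM in the others. Both hnRNPK-KD-labelled libraries were above control for mt-Co2, at 48.9 and 47.7 CPM (log2FC 0.17, SE 0.18, edgeR adjusted p = 0.888).

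For complex III, mt-Cytb was at 2875 and 2844 CPM in control and at 3734 and 3236 CPM in Sox2-KD, 3264 and 2959 in the hnRNPK-KD-labelled libraries and 3248 and 2660 in Cdk9-KD. Both Sox2-KD libraries and both hnRNPK-KD-labelled libraries were above control. The log2FC was 0.29 (SE 0.15, edgeR adjusted p = 0.336) in Sox2-KD and 0.12 (SE 0.15, adjusted p = 0.907) in the hnRNPK-KD-labelled libraries. Neither passed the test. As a percent of mRNA counts, mt-Cytb was 10.3% and 9.38% in control and 13.4% and 11.2% in Sox2-KD, and mt-Co1 was 60.7% and 56.1% against 50.7% and 53.1%. These shares sum over the same 13 mRNAs and are not independent of each other.

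Among the complex I subunits, mt-Nd1 was at 3011 and 4313 CPM in control, a gap that held the other 6 libraries between 3500 and 4062 CPM. For mt-Nd5 the values were 2079 and 2629 CPM in control and 2561 and 3049 CPM in Sox2-KD, with a log2FC of 0.25 (SE 0.17, edgeR adjusted p = 0.470). The opposite-strand mt-Nd6, which is known from other mammalian cells to carry little or no poly(A) tail, was at 318 and 429 CPM in control and 510 and 414 CPM in Cdk9-KD, with a log2FC of 0.31 (SE 0.24, edgeR adjusted p = 0.709). It overlapped control in all 3 knockdown groups. The levels of mt-Nd2 ran from 1132 to 1654 CPM and those of mt-Nd4 from 1107 to 1492 CPM, while mt-Nd3 and mt-Nd4l stayed at 1.18 to 3.42 CPM. On 38 to 60 counts, mt-Nd4l was at 2.53 and 2.46 CPM in control. It was above control at 3.08 and 3.42 CPM in Sox2-KD and 2.93 and 3.32 CPM in the hnRNPK-KD-labelled libraries, without passing the test.

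The ATP synthase mRNAs were both low. At 18.5 to 27.6 CPM, mt-Atp6 overlapped control in each group. In contrast mt-Atp8, at 3.72 and 3.78 CPM in control, was at 4.75 and 4.60 CPM in the hnRNPK-KD-labelled libraries and 3.04 and 3.13 CPM in Cdk9-KD, above and below control in both libraries on 52 to 81 counts each, without passing the test. Its overlap with mt-Atp6 covers 43 of its 204 bases.

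**Figure D3:**
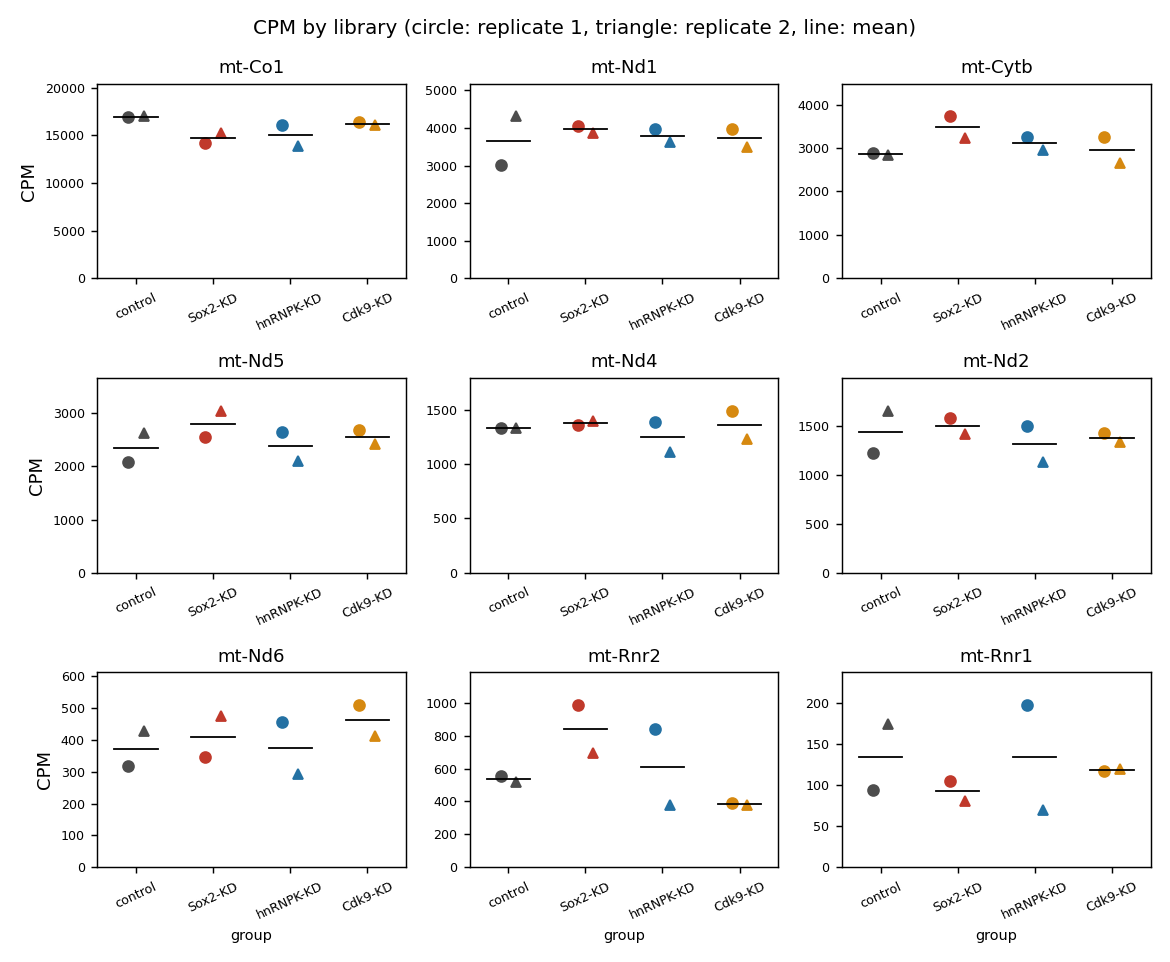
CPM (vertical, from 0) of the 7 abundant mRNAs and both rRNAs in each library by group, with circles for replicate 1, triangles for replicate 2 and lines at the mean of 2. The mRNAs differ by at most 1.74 times between any libraries, while mt-Rnr2 spans 377 to 987 CPM and mt-Rnr1 70.1 to 198 CPM.

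The 7 abundant mRNAs varied by 1.22 to 1.74 times between the highest and the lowest library. Of these 7, 4 were lowest in replicate 2 of the hnRNPK-KD-labelled libraries and 3 were highest in control replicate 2. Over all 13 mRNAs the median log2FC was 0.06 in Sox2-KD, 0.12 in the hnRNPK-KD-labelled libraries and 0.04 in Cdk9-KD, beside 0.02, 0.02 and 0.02 over all genes tested. The median absolute log2FC was 0.11, 0.13 and 0.06, beside 0.28, 0.20 and 0.22 over all genes, many of which have fewer counts. The fits leave room for modest changes in the 7 abundant mRNAs, whose 95% intervals together ran from -0.50 to 0.67 in Sox2-KD, from -0.53 to 0.54 in the hnRNPK-KD-labelled libraries and from -0.47 to 0.84 in Cdk9-KD. For the 6 low mRNAs they ran from -1.06 to 1.26 over the 3 comparisons.

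**Figure D4:**
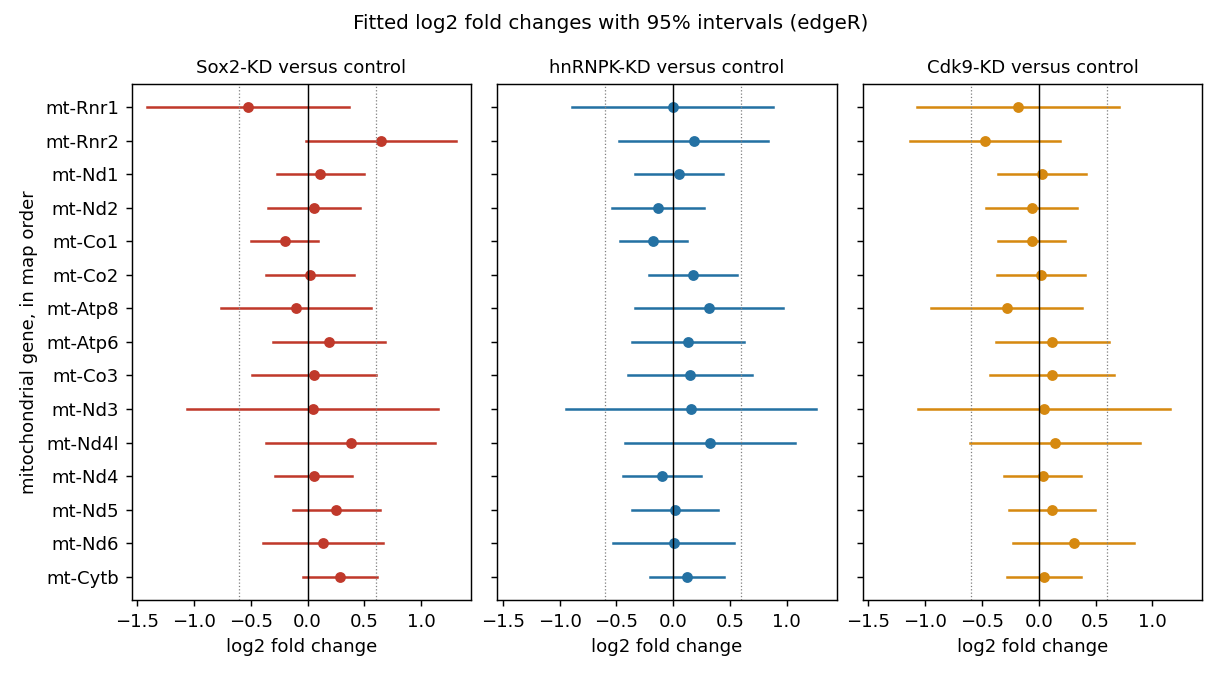
Fitted log2FC (horizontal) with 95% intervals of the 13 mRNAs and 2 rRNAs in map order, for each knockdown group versus control, with dotted lines at the threshold of 0.6 in either direction. Every interval includes 0; the values for mt-Rnr2 are 0.65 in Sox2-KD, 0.18 in the hnRNPK-KD-labelled libraries and -0.48 in Cdk9-KD.

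The 16S rRNA mt-Rnr2 was the only member called in any comparison with all 8 libraries in the fit, close to the threshold. It was at 555 and 519 CPM in control, 987 and 693 CPM in Sox2-KD, 839 and 377 CPM in the hnRNPK-KD-labelled libraries and 393 and 379 CPM in Cdk9-KD. Both Sox2-KD libraries were above and both Cdk9-KD libraries below the control pair, and the hnRNPK-KD-labelled libraries lay on both sides of it. The group means ± SD (n = 2) were 537 ± 25.5 CPM in control, 840 ± 207 in Sox2-KD, 608 ± 326 in the hnRNPK-KD-labelled libraries and 386 ± 10.03 in Cdk9-KD.

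In the direct comparison of Sox2-KD with Cdk9-KD, 1 of the 22 members tested was called, mt-Rnr2, against 7.33% of all genes, a share under that of all genes. Its log2FC was 1.12 (SE 0.30, 95% interval 0.46 to 1.79, edgeR adjusted p = 0.0480), 2.18 times in mean CPM. Against control the log2FC was 0.65 in Sox2-KD (SE 0.30, edgeR adjusted p = 0.273), -0.48 in Cdk9-KD (SE 0.30, adjusted p = 0.627) and 0.18 in the hnRNPK-KD-labelled libraries (SE 0.30, adjusted p = 0.944), none of which passed. The call lies close to its threshold. It was lost when any library of control, Sox2-KD or Cdk9-KD was left out (edgeR adjusted p = 0.0567 to 0.218), and it was kept in 10 of 17 alternative settings, with a log2FC of 0.84 to 1.35 over all 17. The summed trophectoderm and primitive endoderm markers were at 69.5 to 72.2 and 4.79 to 5.90 CPM in Cdk9-KD, under the sums in Sox2-KD given above. Single markers went the other way, with Cdx2 at 22.4 and 29.0 CPM, Eomes at 19.5 and 14.3 CPM and Gata4 at 2.51 and 1.77 CPM in Cdk9-KD, each above its Sox2-KD values (8.96 and 9.25 CPM for Eomes). The part of these cells in the mt-Rnr2 difference was not tested. In these bulk samples a change in RNA per cell and a change in the cells present cannot be told apart.

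The other comparisons between knockdowns gave no call among the members. In Sox2-KD versus the hnRNPK-KD-labelled libraries 0 of 22 were called, against 5.90% of all genes, and in Cdk9-KD versus the hnRNPK-KD-labelled libraries 0 of 22, against 0%, with 0 of 22 at an unadjusted p under 0.05 in both, beside 21.3% and 5.71% of all genes. DESeq2 and the likelihood ratio test also called 0 in both, beside 1275 and 1690 of 16504 genes in the first and 56 and 67 in the second. Each had 1 of 22 at an unadjusted p under 0.05 in the second, beside 4.70% and 6.33% of all genes. For mt-Rnr2 the first of these rested on 1 library. The log2FC was 0.47 (edgeR adjusted p = 0.406) with all libraries, 1.15 (adjusted p = 0.0292, called) without hnRNPK-KD replicate 1, and 0.01 (adjusted p = 0.987) without hnRNPK-KD replicate 2. Replicate 1 is the library of that group with lower Hnrnpk mRNA.

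The 12S rRNA mt-Rnr1 did not follow mt-Rnr2. It was at 93.8 and 175 CPM in control, 106 and 81.1 CPM in Sox2-KD, 198 and 70.1 CPM in the hnRNPK-KD-labelled libraries and 117 and 120 CPM in Cdk9-KD, and the control pair overlapped every group. The log2FC was -0.52 (SE 0.40) in Sox2-KD, 0.00 (SE 0.40) in the hnRNPK-KD-labelled libraries and -0.18 (SE 0.40) in Cdk9-KD, with edgeR adjusted p = 0.528, 0.998 and 0.925. The ratio of mt-Rnr2 to mt-Rnr1 counts, formed after these values were seen, was 9.32 and 8.55 in Sox2-KD and between 2.97 and 5.92 in the other 6 libraries. The 2 rRNAs lie next to each other on the same strand, with only mt-Tv, a tRNA for valine, between them.

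The tRNAs are 59 to 75 bases long, shorter than the 150-base reads, so that a read left at full length by trimming and counted on a tRNA covers sequence outside it. The count floor was set at 3 counts in each library, which is 0.169 to 0.180 CPM of unscaled library totals. Of the 22 tRNAs, 9 stayed at or under the floor in every library. Among them mt-Tf, mt-Ts1, mt-Td, mt-Tk and mt-Tg had 0 counts in all 8 libraries, and mt-Tv, mt-Tq, mt-Tm and mt-Tr had at most 1 to 3. Another 6 (mt-Ti, mt-Ta, mt-Ty, mt-Ts2, mt-Te and mt-Tt) passed the floor in at least 1 library but not the filter for testing, with mt-Te reaching 16 counts in Sox2-KD replicate 1 and 0 in control replicate 1. No mRNA and no rRNA was at the floor.

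The tRNAs that could be tested were mt-Tl1, mt-Tw, mt-Tn, mt-Tc, mt-Th, mt-Tl2 and mt-Tp. Most counts fell on mt-Tp, the tRNA for proline beside the control region, at 210 and 500 counts in control, 287 and 295 in Sox2-KD, 499 and 182 in the hnRNPK-KD-labelled libraries and 236 and 302 in Cdk9-KD. Its control pair alone spanned most of the range over all libraries. The sequences of 3 of these tRNAs, chosen for their counts or their spread between replicates, are as follows.

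mt-Tp (M, minus strand, 15356 to 15422): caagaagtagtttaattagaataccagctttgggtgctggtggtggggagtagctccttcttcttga
mt-Tn (M, minus strand, 5089 to 5159): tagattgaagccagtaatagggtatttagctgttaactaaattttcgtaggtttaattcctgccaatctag
mt-Th (M, plus strand, 11546 to 11612): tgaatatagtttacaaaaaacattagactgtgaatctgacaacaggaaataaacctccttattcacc

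The tRNA for histidine, mt-Th, had 109 and 2 counts in control, 112 and 34 in Sox2-KD, 68 and 25 in the hnRNPK-KD-labelled libraries and 57 and 30 in Cdk9-KD. The tRNA for asparagine, mt-Tn, had 101 and 57, 161 and 38, 136 and 21, and 65 and 59 counts in the same order. Both were higher in replicate 1 than in replicate 2 in all 4 groups. The same held for 5 of the 22 tested members on the CPM scale (mt-Rnr2, mt-Cytb, mt-Tw, mt-Tn and mt-Th), and 0 of 22 had the opposite order in all groups; among the 16504 genes tested 6.63% had the first order and 6.80% the second.

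Next to mt-Rnr2, mt-Tl1 had 55 and 60 counts in control, 114 and 80 in Sox2-KD, 79 and 44 in the hnRNPK-KD-labelled libraries and 49 and 46 in Cdk9-KD. As with mt-Rnr2, both Sox2-KD libraries were above and both Cdk9-KD libraries below control on the CPM scale. Its log2FC was 0.73 (SE 0.36, edgeR adjusted p = 0.304) in Sox2-KD versus control and 0.95 (SE 0.36, adjusted p = 0.152) in Sox2-KD versus Cdk9-KD. In the latter comparison it was, with mt-Rnr2, 1 of 2 of the 22 members at an unadjusted p under 0.05, a lower share than the 21.7% of all genes. Its counts were 0.552% to 0.729% of those of mt-Rnr2 in every library, while its own CPM had a 2.45-fold range. Where the reads on mt-Tl1 come from was not tested.

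**Figure D5:**
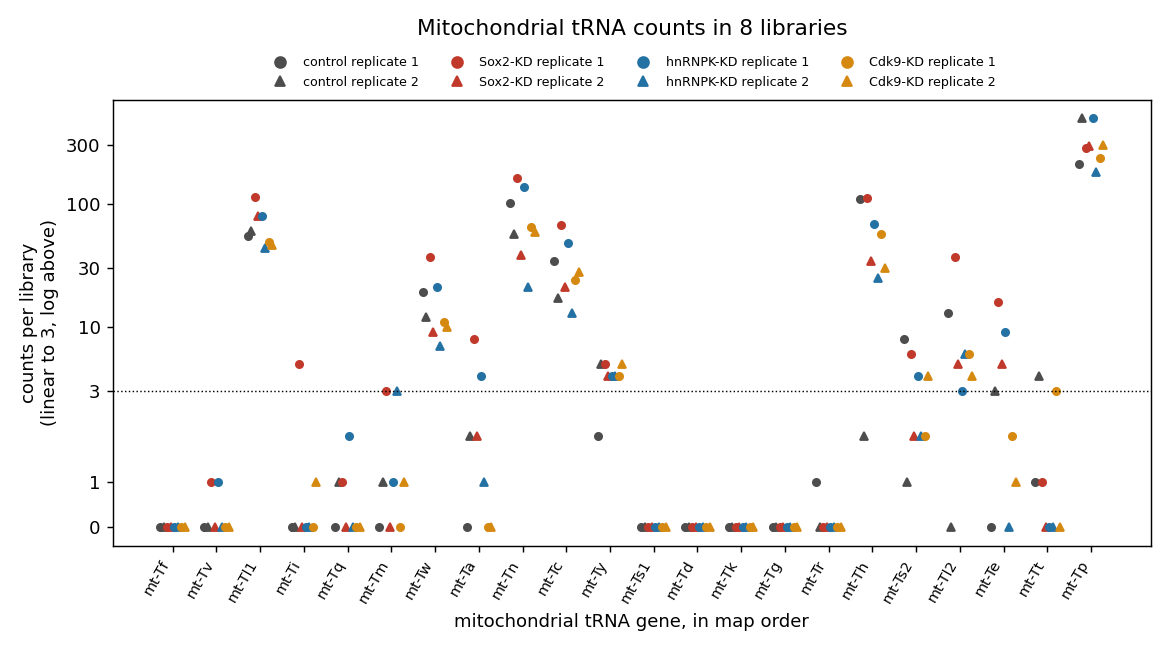
Counts per library (vertical, linear up to 3 and log above, dotted line at the floor of 3) of the 22 tRNAs in map order, with colours for groups and circles and triangles for replicates 1 and 2. The tRNAs at 0 include a run of neighbours, mt-Ts1, mt-Td, mt-Tk and mt-Tg, and the highest is mt-Tp at 182 to 500.

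The tRNAs at 0 in all libraries, other than mt-Tf, lie together on the map, from mt-Ts1 after mt-Co1 to mt-Tg before mt-Nd3, with mt-Tr next to them at 0 or 1 counts. That stretch falls within the segment spanned by the copies on chromosome 1 and among the 6 low mRNAs. The nuclear sequence opposite these tRNAs was not read. Over the 7 tested tRNAs the median log2FC was 0.54 in Sox2-KD, -0.02 in the hnRNPK-KD-labelled libraries and -0.30 in Cdk9-KD, with 95% intervals reaching from -3.25 to 3.97, so that even large differences were not detectable with these libraries.

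The nuclear genes that transcribe, process and maintain mitochondrial RNA and DNA were followed as a list of 47, of which 46 were tested. In each comparison with control 0 of 46 passed edgeR's quasi-likelihood test, against the 4.32%, 0% and 0.139% of all genes given above. DESeq2 and the likelihood ratio test also called 0, against their counts over all genes given above. At an unadjusted p under 0.05 there were 9 in Sox2-KD (19.6% of the 46), 0 in the hnRNPK-KD-labelled libraries and 1 in Cdk9-KD (2.17%), beside the 19.3%, 8.03% and 10.4% of all genes. The median log2FC was -0.16, 0.03 and -0.01, beside 0.02 over all genes in each comparison.

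Among them Tfam, which packages mitochondrial DNA and starts its transcription, was at 118 and 126 CPM in control and 95.6 and 85.1 CPM in Sox2-KD, lower in both libraries, with a log2FC of -0.43 (SE 0.14, edgeR adjusted p = 0.113). The mitochondrial RNA polymerase Polrmt was at 35.8 and 34.8 CPM in control and 40.8 and 37.4 CPM in Sox2-KD, with a log2FC of 0.15 (SE 0.15, adjusted p = 0.657). Neither passed the test.

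Of the genes for RNA stability, Lrpprc and Slirp, whose proteins form a complex that protects mitochondrial mRNAs, had log2FC values of -0.05 (SE 0.13, edgeR adjusted p = 0.870) and -0.23 (SE 0.28, adjusted p = 0.705) in Sox2-KD. The poly(A) polymerase Mtpap was at 48.6 and 48.5 CPM in control and 45.6 and 38.3 CPM in Sox2-KD (log2FC -0.21, SE 0.17, adjusted p = 0.547). The exoribonuclease Pnpt1 was at 132 and 108 CPM in control and 99.1 and 80.0 CPM in Sox2-KD (log2FC -0.42, SE 0.17, adjusted p = 0.188). As with Tfam, both Sox2-KD libraries were below control, and the difference did not pass. Pnpt1 and Mtpap were also below control in both Cdk9-KD libraries, without passing. There Pnpt1 was at 85.3 and 99.6 CPM (log2FC -0.38, SE 0.17, edgeR adjusted p = 0.462). Mtpap was at 41.2 and 39.0 CPM in Cdk9-KD (log2FC -0.28, SE 0.17, edgeR adjusted p = 0.616).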

How the data were processed

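The deposited values are raw counts per gene in 8 libraries of paired 150-base reads, which the authors made by trimming with Trimmomatic, aligning with STAR (2.7.9a per the submitters' notes) and counting with featureCounts 2.0.1 on GRCm38 (mm10) with GENCODE release 23. Strand and multi-mapping settings are not given in the sources used here. Neither normalization nor pooling was applied before deposit.

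Symbols, coordinates and transcript sequences came from GENCODE release 21, on GRCm38, in which 55154 of 55335 IDs matched. Nuclear copies were transcripts aligned by blastn 2.17.0 over at least 200 bases at 95% identity or more, and windows were compared exactly. The filterByExpr filter (at least 10 counts, total at least 15) was applied, and genes were fitted in edgeR 4.0.16 (R 4.3.3) with TMM and a group term over all 8 libraries. The quasi-likelihood test was Benjamini-Hochberg adjusted over 16504 genes, and a call took an adjusted p below 0.05 with |log2FC| above 0.6, as in the study's methods. On simulated data for Sox2-KD versus control, with 16096 genes tested, 124 of 200 changed genes were recovered and 12 of 136 calls were false. Every changed gene was given the same absolute log2FC, larger than that of any mitochondrial mRNA versus control (at most 0.38). The recovery of changes as small as those was not simulated. Shares were compared by exact permutation, and intervals cover counting error only. Totals of 16709201 to 17719366 counts put the floor of 3 counts at 0.169 to 0.180 CPM.

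All mRNAs and rRNAs, tRNAs that passed the filter or reached 10 counts, called members, 6 nuclear factors, copies with at least 10 counts and the targeted genes are named. The members were taken by symbol alone, and the lists were chosen with earlier results of these data known. Alternatives were DESeq2 1.42.0, a likelihood ratio test, other scalings and filters, a replicate block, and each library left out.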

Additional observations from a re-analysis of the deposited data

Results flagged for a closer look

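For mt-Rnr2 the effect of Sox2-KD and that of Cdk9-KD, each against the same control libraries, differed by 1.12 on the log2 scale in edgeR's quasi-likelihood test of the direct contrast (SE 0.30, adjusted p = 0.0480). Both Sox2-KD libraries were above and both Cdk9-KD libraries below control, and neither effect passed against control on its own. Over the alternatives the adjusted p ran from 0.000906 (DESeq2) to 0.218 (without Sox2-KD replicate 1).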

How the results depend on the processing

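Of the members, the single call (mt-Rnr2, Sox2-KD versus Cdk9-KD) fell to 0 without a filter on low counts (adjusted p = 0.0553), and ranged from 0 to 1 when each library was left out. In Sox2-KD versus the hnRNPK-KD-labelled libraries the range was 0 to 1. Calls among members in the other comparisons, and among the 46 nuclear factors versus control, stayed at 0 under every alternative run. The mRNA share in Sox2-KD minus control turned from 0.0675 to -0.0706 percentage points with effective library sizes and ranged from -0.0284 to 0.164 when each library was left out; that of Cdk9-KD ranged from -0.203 to 0.129. Leaving out libraries moved log2FC versus control over ranges that crossed 0 for mt-Rnr2 in the hnRNPK-KD-labelled libraries (-0.52 to 0.62), for mt-Rnr1 in those libraries (-0.95 to 0.53) and in Cdk9-KD (-0.60 to 0.31) and for Slirp in Sox2-KD (-0.58 to 0.0310). With library totals as the scale Lrpprc in Sox2-KD moved to 0.0147. The causes were not tested. Of 66 member log2FC values, 6 changed sign with a replicate block, 3 with library totals and 2 to 20 with a library left out. Differences between replicates correlated weakly between groups over all genes tested (-0.22 to 0.21). No source says what the replicate numbers stand for, so whether they pair the samples is not known. The replicate block kept 1 member called in Sox2-KD versus Cdk9-KD and 0 elsewhere. Over all genes the calls were 713, 0 and 23 for Sox2-KD, the hnRNPK-KD-labelled libraries and Cdk9-KD versus control and 974, 1210 and 0 for Sox2-KD versus those libraries, Sox2-KD versus Cdk9-KD and Cdk9-KD versus those libraries. They were 1350, 87, 279, 1690, 1869 and 67 by the likelihood ratio test. By DESeq2, 83, 222 and 56 replaced 0, 23 and 0, the replicate block gave 15 in Cdk9-KD versus control, and 1 was called without a filter in the hnRNPK-KD-labelled libraries versus control. Leaving out libraries gave 144 to 840, 0 to 1, 0 to 33, 90 to 1100, 337 to 1286 and 0 to 6. With 2 libraries a group, a lone library in a group is assumed to vary like the others. The tRNAs summed to 308 to 879 counts per library.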
